A study of Mus musculus with 28 samples.

Results

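Arginine is a branch point of macrophage metabolism, and the 9 genes described here encode enzymes and a transporter around it, together with the enzyme that makes itaconate. The members were a fixed list, Slc7a2, Ass1, Asl, Nos2, Gch1, Arg1, Arg2, Odc1 and Acod1, found by matching mouse Ensembl gene IDs to symbols, and all 9 were found among the 55487 gene IDs of each library. The data were RNA-seq of wild-type mouse bone marrow derived macrophages (macrophages grown from marrow in culture), in 28 libraries that formed 7 groups of 4. Macrophages were kept for 48 h with IFN-γ (50 ng/mL), with IL-10 (50 ng/mL) or without a polarizing cytokine (M0). In both cytokines the cells were met with apoptotic T cells and sorted into those that engulfed regulatory T cells (Treg-phagocytic), those that engulfed conventional CD4+ T cells (Tconv-phagocytic) and those that engulfed neither (non-phagocytic). The T cells had been driven into apoptosis with ATP/NAD+ and carried a fluorescent anti-CD4 antibody. The M0 labels name neither T cells nor uptake, so a difference from M0 cannot be told apart from co-culture and sorting. The antibody's dye (BV421 or Ax647) differs between title and library name for 8 of the 16 phagocytic libraries, all of them Treg-phagocytic, and libraries are named here by the dye of their titles. No label says whether the 4 libraries of a group came from separate mice, so the tests measure only the spread between libraries.

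Arginine enters macrophages through cationic amino acid transporters, of which Slc7a2 is the inducible one. Inducible nitric oxide synthase, encoded by Nos2, turns arginine into nitric oxide and citrulline, and needs tetrahydrobiopterin, whose synthesis Gch1 starts. Ass1 and Asl rebuild arginine from citrulline. The cytosolic arginase Arg1 and the mitochondrial arginase Arg2 compete for the same arginine and split it into urea and ornithine, which Odc1 turns into putrescine, the first polyamine. Acod1 makes itaconate from the citric acid cycle intermediate cis-aconitate in the mitochondrion. Nos2 and Acod1 are textbook genes of macrophages activated by IFN-γ with microbial products, and Arg1 of macrophages activated by IL-4.

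In the mm10 assembly (GRCm38, GENCODE vM21), Acod1 spans chr14:103046977-103056573 on the plus strand and Gch1 chr14:47153895-47189413 on the minus strand. Nos2 spans chr11:78920787-78960254, Ass1 chr2:31470207-31520672 and Slc7a2 chr8:40862396-40922308, all on the plus strand. Arg1 (chr10:24915221-24927484, minus strand) and Arg2 (chr12:79130777-79156301, plus strand) lie on different chromosomes. Asl spans chr5:130011258-130029247 on the minus strand and Odc1 chr12:17544794-17551505 on the plus strand. All 9 are annotated as protein-coding genes.

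Because Arg1 was listed at 0 in every IFN-γ library while Arg2 was not, it matters that reads of both arginases can be told apart. The longest stretch that the coding sequences of Arg1 (972 bases, 323 amino acids) and Arg2 (1065 bases, 354 amino acids) share without a mismatch is 12 bases. It is in capitals below, inside Arg1 coding bases 499 to 558 and Arg2 coding bases 556 to 615 of the GENCODE transcripts.
Arg1: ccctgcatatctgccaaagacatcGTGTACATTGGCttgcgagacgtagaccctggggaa
Arg2: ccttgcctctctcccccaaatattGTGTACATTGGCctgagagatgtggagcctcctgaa

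RefSeq promoter windows (GRCm38.p6) were matched for 4 of the 9 members, Acod1, Ass1, Odc1 and Gch1, and the 250 bases before each start were searched on both strands. Shown are Acod1 and Ass1, which rose under IFN-γ, and Gch1, which hardly moved. Each is printed 5′ to 3′ as far as the bases that precede both the RefSeq and the GENCODE start, which leaves out 35 bases of Acod1 and 63 of Ass1. The stretches are chr14:103046762-103046976 (plus strand) for Acod1, chr2:31470020-31470206 (plus strand) for Ass1 and chr14:47189414-47189663 (minus strand) for Gch1. The capitals in Gch1 mark a match to the NF-kB motif.
Acod1: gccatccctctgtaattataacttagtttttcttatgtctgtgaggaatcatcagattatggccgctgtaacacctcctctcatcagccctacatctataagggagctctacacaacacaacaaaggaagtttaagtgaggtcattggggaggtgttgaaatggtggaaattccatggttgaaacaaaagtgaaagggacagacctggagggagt
Ass1: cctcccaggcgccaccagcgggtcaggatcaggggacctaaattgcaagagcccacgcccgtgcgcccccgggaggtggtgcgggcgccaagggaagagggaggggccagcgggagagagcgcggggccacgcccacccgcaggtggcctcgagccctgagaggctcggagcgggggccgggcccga
Gch1: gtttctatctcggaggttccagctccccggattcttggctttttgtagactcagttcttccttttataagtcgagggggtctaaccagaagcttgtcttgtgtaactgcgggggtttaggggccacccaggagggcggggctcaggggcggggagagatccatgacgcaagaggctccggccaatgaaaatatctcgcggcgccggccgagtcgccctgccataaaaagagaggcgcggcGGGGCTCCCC

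The interferon-γ activated site (GAS, TTCNNNGAA) had no match in the 4 windows. It is in 7.02% of the 32851 promoter windows of the table. The ISRE-like motif GAAANNGAA (7.13% of windows), of the kind that interferon regulatory factors bind, and the C/EBP motif TTGCNNAA (9.56%) had no match either. The NF-kB motif (7.25% of windows) was matched in Gch1, 10 to 1 bases before the start. Ass1 held an E-box, CACGTG (6.02% of windows), 36 to 31 bases before the RefSeq start. Acod1 held the hypoxia core ACGTG (16.6% of windows) on the minus strand, 18 to 14 bases before the RefSeq start. Both matches lie after the GENCODE start, among the bases left out above, and so are not in the printed stretches. Each E-box contains the hypoxia core, so the Ass1 match counts under both. Odc1 matched none of the 6 motifs.

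The deposited values are TPM, which are per transcript length and so allow levels of different genes to be compared. They are rounded to 2 decimals, and no read counts were used here. Steps between low values gave each library's depth relative to the deepest one. It was 11.2% to 24.2% for the 12 with IFN-γ, 49.8% to 90.0% for the 12 with IL-10 and at least 68.7% for M0. The median SD between libraries on the log2 scale was 0.232 to 0.273 under IFN-γ against 0.103 to 0.122 elsewhere, so low genes are measured least well under IFN-γ. All 13 macrophage markers reached a mean of 1 TPM in every group, and their summed level was 18900 to 23900 TPM per library. T cell markers were also present. The 18 T cell genes summed to 653 to 1180 TPM per library with IFN-γ, 195 to 358 TPM with IL-10 and 219 to 338 TPM in M0. The 9 stromal genes summed to 3.32 to 11.6 TPM in IFN-γ, 28.7 to 165 TPM in IL-10 and 118 to 136 TPM in M0. The 8 B cell genes summed to 83.7 to 148 TPM with IFN-γ and 29.2 to 70.4 TPM with IL-10, the 7 dendritic cell genes to 8.84 to 22.6 and 2.96 to 5.94 TPM and the 6 erythroid genes to 8.65 to 30.8 and 2.43 to 12.2 TPM. Depth and these marker sums moved with the cytokine, and their part in the differences between cytokines below was not tested. In bulk RNA, fewer cells that make a transcript cannot be told apart from less transcript per cell.

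By level, 4 of the 9 genes were above 5 TPM in every library and 5 were below it in every library. Odc1 (42.57 to 72.73 TPM over the 28 libraries) and Asl (25.64 to 46.46 TPM) were well expressed in every library; in IFN-γ Tconv-phagocytic macrophages, for example, 85.6% and 73.7% of the 13631 genes tested had a lower mean, and 77.8% were below Ass1. Gch1 lay between 9.12 and 14.38 TPM and Ass1 between 5.72 and 43.47 TPM. Of the other 5, Arg2 reached 3.55 TPM, Acod1 2.75, Arg1 1.62, Nos2 1.36 and Slc7a2 1.29 TPM. The genes known as markers of inflammatory and alternative activation were thus among the lowest here. In IFN-γ Tconv-phagocytic libraries, where Acod1 was highest, 21.0% of the tested genes were lower.

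**Figure D1:**
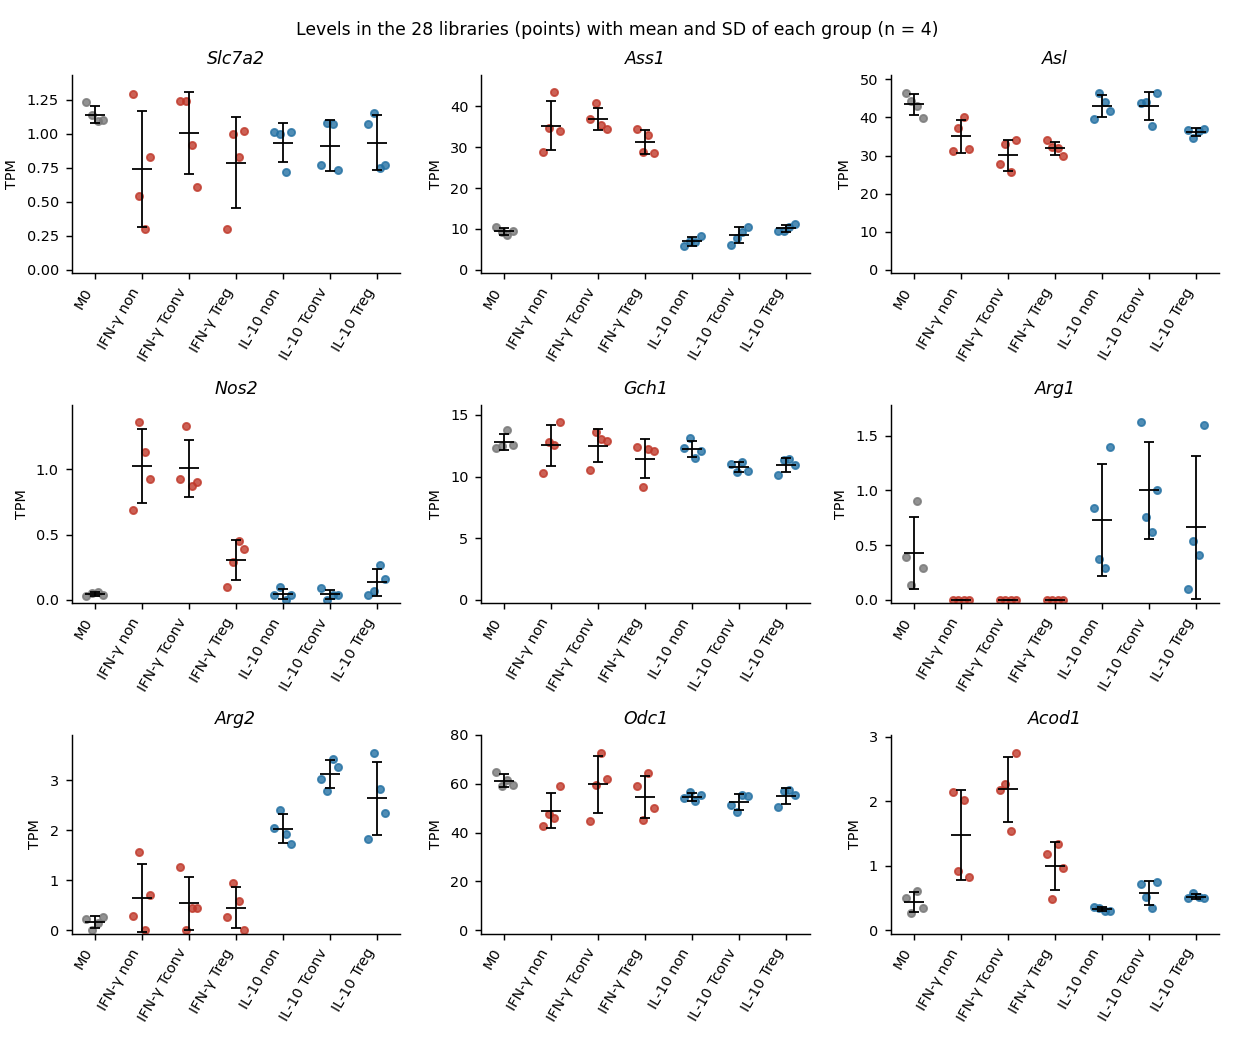
TPM (y axis, linear, each gene on its own scale) of the 9 genes in the 7 groups (x axis; non, non-phagocytic); points are libraries, black bars the mean and SD of 4 libraries, colours the cytokine (grey none, red IFN-γ, blue IL-10). Ass1 lies between 28.69 and 43.47 TPM in all IFN-γ libraries and at most at 11.18 TPM elsewhere, and Arg1 is at 0 in the 12 IFN-γ libraries.

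Differences were tested with limma on log2 values of scaled TPM with 1 added, fitted on the groups compared over the 13631 genes that reached 1 TPM in 4 or more libraries. A gene was called at a Benjamini-Hochberg adjusted p under 0.05 over all genes. Log2 differences are given with their SE, and for genes near 0 they understate the change. Of the members, 8 passed the filter and Nos2 did not, so Nos2 was tested by exact permutation of libraries. Between IFN-γ and IL-10, 51.4% of genes were called in non-phagocytic, 52.5% in Tconv-phagocytic and 38.3% in Treg-phagocytic macrophages. Comparisons that share a group share its 4 libraries and are not independent. Members called were 4 of 8, 6 of 8 and 2 of 8 in the same order. Against M0, 2 of 8 were called for IFN-γ (53.1% of genes) and 3 of 8 for IL-10 (26.7%). Scaling matters for the small differences: without it the median of all genes was -0.257 for IFN-γ minus IL-10 in non-phagocytic, -0.146 in Tconv-phagocytic and -0.264 in Treg-phagocytic cells and -0.242 for IFN-γ minus M0, against -0.02, -0.026, -0.072 and -0.018 with it.

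**Figure D2:**
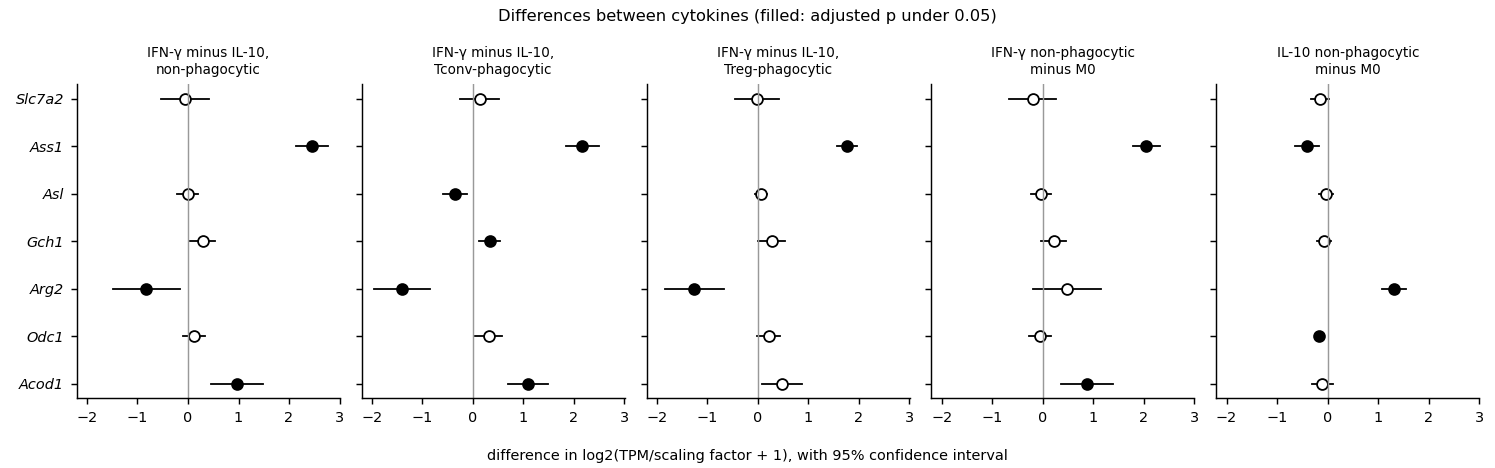
Difference in log2(TPM/scaling factor + 1) (x axis) for 7 genes (y axis) in 5 comparisons of cytokines (panels); points are limma estimates, bars 95% confidence intervals, filled points have an adjusted p under 0.05. Ass1 is the one gene called in all 5 panels, and Arg2 is lower under IFN-γ than under IL-10 in each of the 3 uptake groups. Nos2, under the filter, and Arg1, at 0 under IFN-γ, are left out.

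Slc7a2, the inducible arginine transporter, stayed near 1 TPM in every condition. The M0 libraries held 1.23, 1.14, 1.09 and 1.1 TPM. The IFN-γ libraries ranged from 0.3 to 1.29 TPM (median 0.875) and the IL-10 libraries from 0.72 to 1.15 TPM (median 1.005). M0 lay above all 4 IL-10 non-phagocytic libraries (0.72 to 1.01 TPM), but the log2 difference of -0.15 ± 0.08 (SE) was not called (adjusted p = 0.217). Slc7a2 was called in 0 of the 11 comparisons, and its IFN-γ values were too scattered to bound a change closely: the 95% interval of the log2 difference between IFN-γ and IL-10 non-phagocytic cells ran from -0.53 to 0.42. The constitutive transporter Slc7a1 was higher in level and moved more: it averaged 14.2 ± 0.375 TPM in M0 and 5.35 ± 0.499 TPM in IFN-γ non-phagocytic macrophages (SD, n = 4), a log2 difference of -1.02 (adjusted p = 3.3e-05).

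Ass1, which joins citrulline and aspartate to argininosuccinate, was the member that differed most between cytokines on the scale of the test, which understates genes near 0. In M0 it measured 10.53, 9.18, 8.51 and 9.38 TPM. IFN-γ non-phagocytic libraries held 28.91, 34.78, 43.47 and 34.07 TPM, Tconv-phagocytic ones 37.02, 40.8, 35.36 and 34.59 TPM and Treg-phagocytic ones 34.43, 28.87, 32.89 and 28.69 TPM. No IFN-γ library came near the others. Under IL-10, non-phagocytic libraries held 5.72, 6.95, 6.77 and 8.27 TPM, Tconv-phagocytic ones 6.05, 7.74, 9.35 and 10.58 TPM and Treg-phagocytic ones 9.5, 9.36, 10.54 and 11.18 TPM. Under IL-10 the Treg-phagocytic libraries all lay above the non-phagocytic ones and overlapped with M0.

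IFN-γ minus IL-10 gave an Ass1 difference of 2.45 ± 0.14 (SE; adjusted p = 1.02e-06) in non-phagocytic, 2.17 ± 0.15 (adjusted p = 3.15e-06) in Tconv-phagocytic and 1.76 ± 0.09 (adjusted p = 2.48e-06) in Treg-phagocytic macrophages. On that scale these are rises of 5.48-fold, 4.5-fold and 3.39-fold. Against M0, Ass1 rose by 2.05 ± 0.12 under IFN-γ (adjusted p = 1.88e-06) and fell by 0.41 ± 0.10 under IL-10 (log2 -0.41, adjusted p = 0.0214), with all 4 IL-10 non-phagocytic libraries below all 4 of M0. The fall was not called when M0 replicate 1, M0 replicate 4 or IL-10 non-phagocytic replicate 3 was left out (adjusted p = 0.0549, 0.0547 and 0.0517). Nor was it called with a replicate block by the number of the titles. The rises were called in each of the 15 or 16 alternative settings.

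Ass1 differed between uptake groups under IL-10. Of the genes tested, 11.4% were called between Treg-phagocytic and non-phagocytic IL-10 macrophages, and Ass1 was the one member of 8 among them. It averaged 10.1 ± 0.868 TPM against 6.93 ± 1.05 TPM (SD, n = 4 each), a difference of 0.57 ± 0.11 (SE; adjusted p = 0.0122). It was called in all 16 alternatives (adjusted p = 0.000816 to 0.0387). Markers of other cells differed between the same groups: T cell genes summed to 324 to 358 against 195 to 209 TPM, B cell genes to 61.4 to 70.4 against 29.2 to 33.6 TPM and stromal genes to 28.7 to 32.6 against 83.9 to 88.7 TPM. Their part in this was not tested. Under IFN-γ the same comparison gave -0.12 ± 0.12 (adjusted p = 0.593). The difference between these differences was -0.69 ± 0.17 (adjusted p = 0.0149), one of 9.33% of genes called for that term. It was not called with a variance weight per group (adjusted p = 0.128). Tconv-phagocytic IL-10 cells lay between the other groups (8.43 ± 1.97 TPM) and overlapped both.

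Asl, which cleaves argininosuccinate to arginine and fumarate, did not follow Ass1. M0 libraries held 46.46, 44.44, 42.98 and 39.89 TPM, and the 12 IFN-γ libraries 25.64 to 40.21 TPM (median 32.065). The 12 IL-10 libraries held 34.57 to 46.36 TPM (median 40.63). The TPM were lower under IFN-γ, but much of this went with the scaling. In non-phagocytic macrophages the scaled IFN-γ minus IL-10 difference was -0.01 ± 0.09 (adjusted p = 0.945) and became -0.29 (adjusted p = 0.0264) without scaling. In Treg-phagocytic macrophages it was 0.06 ± 0.05 (adjusted p = 0.398) and turned to -0.17 (adjusted p = 0.0455) without scaling. In Tconv-phagocytic macrophages Asl fell with either (-0.36 ± 0.10, adjusted p = 0.0168). There the IFN-γ libraries held 27.68, 33.05, 25.64 and 34.02 TPM and the IL-10 libraries 43.7, 44.05, 37.82 and 46.36 TPM, with no overlap. Without the IL-10 Tconv-phagocytic library Ax647-2 the adjusted p was 0.0534.

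Within IL-10, the Treg-phagocytic libraries (36.6, 34.57, 36.32 and 37.1 TPM of Asl) lay below all 8 other IL-10 libraries. In the same libraries stromal markers were lowest (28.7 to 32.6 TPM, against 83.9 to 165 TPM in the other IL-10 libraries), and T cell (324 to 358 against 195 to 277 TPM) and B cell markers (61.4 to 70.4 against 29.2 to 40.9 TPM) highest; their part was not tested. The log2 difference was -0.24 ± 0.06 from Tconv-phagocytic (adjusted p = 0.123, where 1.39% of genes and 0 of 8 members were called) and -0.16 ± 0.05 from non-phagocytic cells (adjusted p = 0.0985), and neither was called. Asl was the one member called for the Treg minus Tconv difference between cytokines (0.42 ± 0.12, adjusted p = 0.0298, where 13.3% of genes were called). That call was lost without scaling (adjusted p = 0.0981) and with a variance weight per group (adjusted p = 0.0552) and when any 1 of 5 IL-10 phagocytic libraries was left out (adjusted p = 0.0523 to 0.0713).

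Nos2 was near 0 in M0 and under IL-10, and averaged 1.03 and 1.01 TPM in IFN-γ non- and Tconv-phagocytic but 0.307 TPM in IFN-γ Treg-phagocytic macrophages. M0 libraries held 0.03, 0.05, 0.06 and 0.04 TPM. Under IFN-γ, non-phagocytic libraries held 0.69, 1.36, 1.13 and 0.93 TPM, Tconv-phagocytic ones 0.93, 1.33, 0.87 and 0.9 TPM and Treg-phagocytic ones 0.1, 0.29, 0.45 and 0.39 TPM. The Treg-phagocytic libraries lay below all 8 other IFN-γ libraries. Under IL-10, non-phagocytic libraries held 0.04, 0.1, 0 and 0.04 TPM, Tconv-phagocytic ones 0.09, 0, 0.04 and 0.04 TPM and Treg-phagocytic ones 0.04, 0.07, 0.27 and 0.16 TPM. The IL-10 Treg-phagocytic range reached into that of IFN-γ Treg-phagocytic cells.

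The reads behind these Nos2 values can be estimated from the depth and the transcript length of 4192 bases. One read is worth 0.0667 to 0.145 TPM in the IFN-γ libraries, which puts Nos2 at 7.99 to 18.4 reads in non- and Tconv-phagocytic libraries and at 1.25 to 4.99 reads in Treg-phagocytic ones. Nos2 was tested by exact permutation of libraries in 10 comparisons (two-sided; the smallest p that 4 against 4 libraries can give is 0.0286). It averaged 0.307 ± 0.153 TPM (SD) in IFN-γ Treg-phagocytic macrophages, against 1.01 ± 0.216 TPM in Tconv-phagocytic and 1.03 ± 0.285 TPM in non-phagocytic ones. Both comparisons gave the exact p of 0.0286, or 0.0571 after Benjamini-Hochberg adjustment over the 10. IFN-γ against IL-10 in non- and in Tconv-phagocytic cells and IFN-γ against M0 gave the same values, so no adjusted exact p fell under 0.05. Each of these exact p was already the smallest that 4 against 4 libraries can give. The adjusted outcome was thus limited by the numbers of libraries and comparisons and does not show that Nos2 was alike. In Treg-phagocytic cells IFN-γ and IL-10 overlapped (exact p = 0.114).

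When limma was run with no filter on low values, Nos2 was called for IFN-γ against IL-10 in non-phagocytic (log2 1.02, adjusted p = 0.000284) and Tconv-phagocytic macrophages (0.99, adjusted p = 0.00011) and against M0 (1.02, adjusted p = 0.000253). For IFN-γ Treg- minus Tconv-phagocytic cells that fit gave -0.62 ± 0.17 (SE; adjusted p = 0.0732), and for Treg- minus non-phagocytic cells -0.66 ± 0.19 (adjusted p = 0.105). Under IL-10 the same differences were 0.11 each, of the opposite sign and not called. The differences between cytokines were -0.73 ± 0.14 (adjusted p = 0.0063) and -0.77 ± 0.16 (adjusted p = 0.0115). That fit gives IFN-γ and IL-10 libraries a common variance, and its SE were below those of the IFN-γ differences alone.

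**Figure D3:**
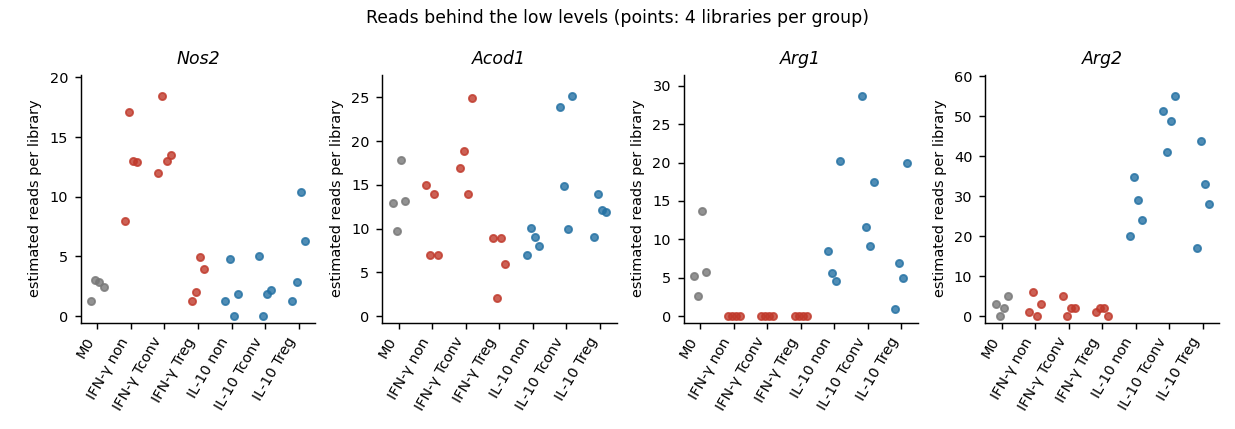
Estimated reads per library (y axis, linear) behind the TPM of 4 of the 5 low genes in the 7 groups (x axis). Points are libraries. Slc7a2 is left out because its annotated transcripts differ too much in length for an estimate. Nos2 rests on at most 4.99 reads in each IFN-γ Treg-phagocytic library, Arg1 on 0 in all IFN-γ libraries and Arg2 on at most 6.03 in any IFN-γ library.

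Gch1, the first enzyme of tetrahydrobiopterin synthesis, changed little. M0 libraries held 12.33, 12.51, 13.79 and 12.53 TPM, the IFN-γ libraries 9.12 to 14.38 TPM (median 12.485) and the IL-10 libraries 10.12 to 13.1 TPM (median 11.25). It was called in 1 comparison, IFN-γ minus IL-10 in Tconv-phagocytic macrophages (12.5 ± 1.37 against 10.8 ± 0.4 TPM; log2 0.33 ± 0.09 SE, adjusted p = 0.0144), where the libraries overlapped in TPM. Without scaling that difference was 0.20 (adjusted p = 0.12). The same comparison gave 0.29 ± 0.11 (adjusted p = 0.0553) in non-phagocytic and 0.27 ± 0.11 (adjusted p = 0.0945) in Treg-phagocytic cells. On that scale the 3 differences between cytokines were 1.21-fold to 1.26-fold. The non-phagocytic and Treg-phagocytic differences were called in 4 and 3 of 15 alternatives (lowest adjusted p = 0.0118 and 0.0127).

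Arg1 was listed at 0 in all 12 IFN-γ libraries and above 0 in all 16 others. M0 libraries held 0.39, 0.14, 0.9 and 0.29 TPM. Under IL-10, non-phagocytic libraries held 0.84, 0.37, 0.29 and 1.4 TPM, Tconv-phagocytic ones 1.62, 0.76, 0.62 and 1.0 TPM and Treg-phagocytic ones 0.1, 0.54, 0.41 and 1.6 TPM. The IL-10 and M0 groups overlapped widely, and no uptake comparison of Arg1 was called. Against IL-10, limma gave an adjusted p of 0.0256 in non-phagocytic, 0.00248 in Tconv-phagocytic and 0.0691 in Treg-phagocytic macrophages, and against M0 of 0.0618. The SD of the IFN-γ values was 0, so these p-values do not measure the uncertainty of a value of 0 at low depth. The Treg-phagocytic difference was called in 3 of 15 alternatives and the M0 difference in 4 of 16 (lowest adjusted p = 0.0136 and 0.0106). No fold is given against a group at 0. The non-phagocytic call was lost without IL-10 replicate 1 (adjusted p = 0.0644) or replicate 4 (adjusted p = 0.06) and with a variance weight per group (adjusted p = 0.0908).

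Depth limits what an Arg1 value of 0 means. The transcript has 1477 bases, and 1 read is worth 0.211 to 0.457 TPM in an IFN-γ library, against 0.0567 to 0.103 TPM under IL-10 and 0.0511 to 0.0743 TPM in M0. A count of 0 allows up to 3 reads, or 0.633 to 1.37 TPM per IFN-γ library, counting error only. Many IL-10 and M0 values lie under that, so in a single IFN-γ library a level like that of M0 would often not be detectable. Over the 4 libraries of a group together the same limit is 0.191 TPM in non-phagocytic, 0.167 TPM in Tconv-phagocytic and 0.232 TPM in Treg-phagocytic macrophages, below the mean of every IL-10 group (0.663 to 1.0 TPM) and of M0 (0.43 TPM).

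Arg2 went with IL-10. M0 libraries held 0.23, 0, 0.14 and 0.27 TPM. Under IL-10, non-phagocytic libraries held 2.05, 2.41, 1.92 and 1.72 TPM, Tconv-phagocytic ones 3.02, 2.78, 3.43 and 3.27 TPM and Treg-phagocytic ones 1.83, 3.55, 2.83 and 2.34 TPM. Every IL-10 library was above every other library. Under IFN-γ, non-phagocytic libraries held 0.28, 1.57, 0 and 0.71 TPM, Tconv-phagocytic ones 1.27, 0, 0.44 and 0.44 TPM and Treg-phagocytic ones 0.26, 0.95, 0.59 and 0 TPM. Those 12 values rest on 24 estimated reads in all, against 425 in the IL-10 libraries, and no order is read from them.

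From M0 to IL-10 Arg2 rose by 1.30 ± 0.10 (SE; adjusted p = 2.89e-05), the largest rise among the members for that comparison, and it was called in all 16 alternatives. IFN-γ was lower than IL-10 by -0.83 ± 0.29 in non-phagocytic (adjusted p = 0.0411), -1.41 ± 0.25 in Tconv-phagocytic (adjusted p = 0.0012) and -1.26 ± 0.26 in Treg-phagocytic macrophages (adjusted p = 0.00534). The first was lost in 9 of 15 alternatives, among them leaving out any 1 IL-10 library or IFN-γ replicate 1, 3 or 4 (adjusted p = 0.0557 to 0.0998). The other 2 were called in all 15. IFN-γ minus M0 was 0.48 ± 0.30 (adjusted p = 0.206), so Arg2 was not shown to differ from M0 there.

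Arg2 was also the one member called between Tconv-phagocytic and non-phagocytic IL-10 macrophages, where 6.15% of genes were called. It averaged 3.12 ± 0.285 TPM against 2.02 ± 0.29 TPM (SD, n = 4), a difference of 0.50 ± 0.09 (SE; adjusted p = 0.0185), with all 4 Tconv-phagocytic libraries above all 4 non-phagocytic ones. Stromal markers summed to 152 to 165 TPM in the Tconv-phagocytic and 83.9 to 88.7 TPM in the non-phagocytic libraries, and T cell markers to 227 to 277 and 195 to 209 TPM; their part in this was not tested. The call was lost in a model of all 28 libraries (adjusted p = 0.759), with no filter on low values (adjusted p = 0.0622), without IL-10 non-phagocytic replicate 3 (adjusted p = 0.0561) and without the Tconv-phagocytic library Ax647-2 (adjusted p = 0.0541). It was also lost with a replicate block by file number. Treg-phagocytic cells (2.64 ± 0.733 TPM) overlapped both groups. No member was called for the Tconv minus non-phagocytic difference between cytokines, where 1.73% of genes were called.

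Odc1, which makes putrescine from ornithine, was the highest member in all groups. M0 libraries held 65.0, 58.98, 61.44 and 59.65 TPM, IL-10 non-phagocytic ones 54.27, 56.66, 52.79 and 55.19 TPM. All 4 IL-10 libraries were below M0, by -0.17 ± 0.04 on the log2 scale (adjusted p = 0.0071), a fall of 1.13-fold that was lost in the model of all 28 libraries (adjusted p = 0.407). The IFN-γ libraries were the most scattered, at 42.57 to 72.73 TPM (median 54.515), and covered the whole IL-10 range of 48.26 to 57.38 TPM. IFN-γ minus M0 was -0.06 ± 0.10 (adjusted p = 0.617) and -0.33 (adjusted p = 0.0156) without scaling. IFN-γ minus IL-10 was 0.31 ± 0.12 in Tconv-phagocytic cells (adjusted p = 0.0569), and without the IFN-γ Tconv-phagocytic library BV421-1 it was 0.43 (adjusted p = 0.00274).

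Acod1, the itaconate enzyme, was low but higher under IFN-γ. M0 libraries held 0.5, 0.27, 0.61 and 0.35 TPM. IFN-γ non-phagocytic libraries held 2.14, 0.91, 2.01 and 0.83 TPM, Tconv-phagocytic ones 2.17, 2.26, 1.54 and 2.75 TPM and Treg-phagocytic ones 1.18, 0.48, 1.33 and 0.97 TPM. All 4 Treg-phagocytic libraries lay below all 4 Tconv-phagocytic ones. Under IL-10, non-phagocytic libraries held 0.36, 0.35, 0.3 and 0.29 TPM, Tconv-phagocytic ones 0.71, 0.51, 0.35 and 0.75 TPM and Treg-phagocytic ones 0.49, 0.57, 0.52 and 0.5 TPM.

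IFN-γ exceeded IL-10 for Acod1 by 0.97 ± 0.22 (SE) in non-phagocytic (adjusted p = 0.00583) and 1.084 ± 0.177 in Tconv-phagocytic macrophages (adjusted p = 0.000759), with no overlap of libraries in either. In Treg-phagocytic macrophages the libraries overlapped and the difference of 0.48 ± 0.17 was not called (adjusted p = 0.0567). It was called without the IFN-γ Treg-phagocytic library Ax647-2, the shallowest of all at 11.2% of the deepest (0.62, adjusted p = 0.00634). It was also called in the model of all 28 libraries. That model called 46.6% of genes in this comparison, against 38.3% in the fit of both groups. Against M0, Acod1 rose by 0.87 ± 0.23 under IFN-γ (adjusted p = 0.0107) and differed by -0.10 ± 0.09 under IL-10 (adjusted p = 0.452).

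Between IFN-γ uptake groups, Acod1 was lower in Treg- than in Tconv-phagocytic macrophages (0.99 ± 0.371 against 2.18 ± 0.497 TPM, SD, n = 4), by -0.66 ± 0.21 on the log2 scale. This was not called in the fit of both groups (adjusted p = 0.0885), and was called in the model of all 28 libraries (adjusted p = 0.00774). That model called 30.8% of all genes in this comparison, against 11.7% in the fit of both groups. It takes its variance from all groups, and the spread was smaller outside IFN-γ. The difference from the IL-10 contrast was -0.61 ± 0.26 (adjusted p = 0.143). Under IL-10 both phagocytic groups averaged more Acod1 than the non-phagocytic one, by 0.21 ± 0.08 for Treg (adjusted p = 0.12) and 0.26 ± 0.10 for Tconv (adjusted p = 0.184), neither called.

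No member of 8 was called in the 3 uptake comparisons under IFN-γ, in which 11.7% of genes were called for Treg- against Tconv-phagocytic, 8.0% for Treg- against non-phagocytic and 0.00734% (1 gene) for Tconv- against non-phagocytic macrophages. Unadjusted p-values under 0.05 were found for 1 member (Acod1), 0 and 0. A model of all 28 libraries called 1, 0 and 0 members, and 30.8%, 26.5% and 0.902% of all genes. The confidence intervals were wide for the low genes: for Arg2 in Treg- minus Tconv-phagocytic cells the 95% interval ran from -0.78 to 0.68. For Ass1 in the same comparison it ran from -0.34 to 0.04 and for Odc1 from -0.37 to 0.31, so changes of the size seen between cytokines in Ass1 lie outside it.

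**Figure D4:**
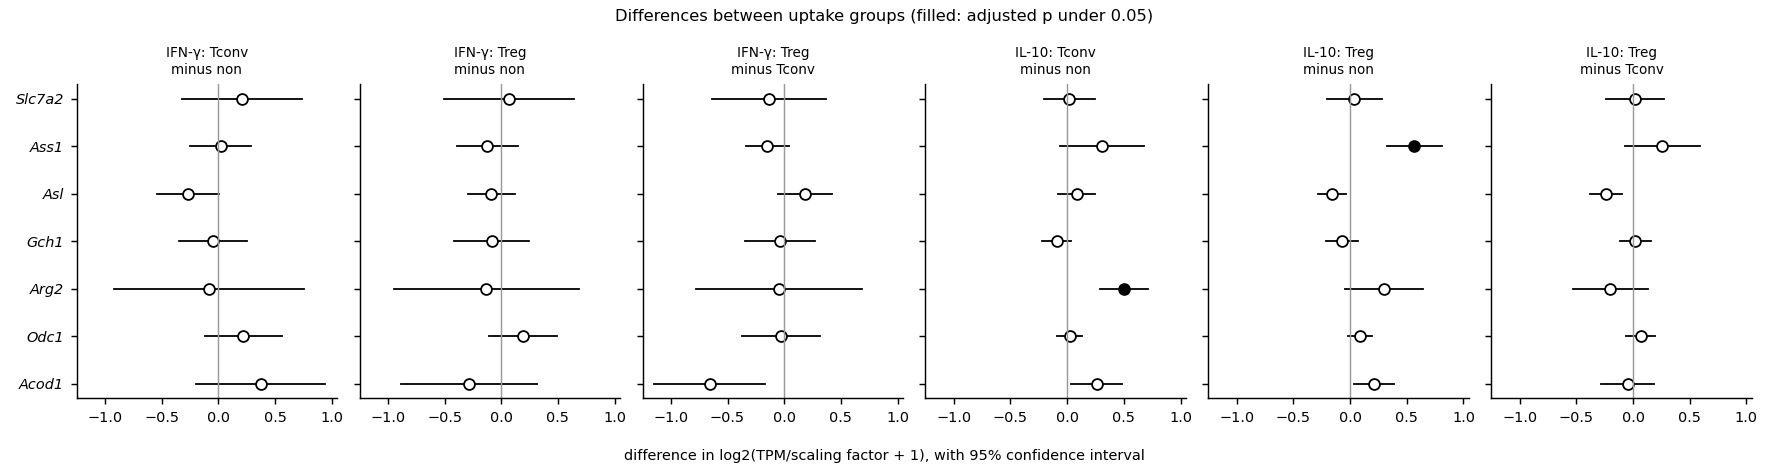
Difference in log2(TPM/scaling factor + 1) (x axis) for 7 genes (y axis) in 6 comparisons of uptake groups within a cytokine (panels); points are limma estimates, bars 95% confidence intervals, filled points have an adjusted p under 0.05. The filled points are Arg2 for Tconv minus non-phagocytic cells (0.50) and Ass1 for Treg minus non-phagocytic cells (0.57), both under IL-10; the IFN-γ intervals are wider.

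Genes of the surrounding pathways were taken as 5 lists, each counted beside all genes tested. Of 16 tested genes of arginine transport and catabolism, 9 were lower and 2 higher under IFN-γ than under IL-10 in non-phagocytic macrophages, with a median of -0.46. Over all genes 3530 were lower and 3479 higher (without scaling, 5548 and 2369), with a median of -0.02. The list gave 10 lower and 1 higher in Tconv-phagocytic and 7 lower and 2 higher in Treg-phagocytic cells. The largest fall was that of Gatm, which starts creatine synthesis from arginine, at 11.3 ± 3.17 against 28.1 ± 1.64 TPM (SD, n = 4) in non-phagocytic macrophages (log2 -1.02, adjusted p = 0.00128). Among genes that reach a mean of 5 TPM with no overlap of groups, the largest rise was that of Ckb, brain-type creatine kinase (log2 0.42, adjusted p = 0.000119). Under IL-10, Slc7a1 was lower in Treg-phagocytic (9.95 TPM) and Tconv-phagocytic (10.3 TPM) than in non-phagocytic macrophages (13.3 TPM), by -0.31 (adjusted p = 0.0127) and -0.27 (adjusted p = 0.0233). T cell and stromal marker sums also differed between these groups, and their part was not tested.

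The nitric oxide and tetrahydrobiopterin list had 11 tested genes. In non-phagocytic macrophages 2 genes were lower (18.2%) and 0 higher under IFN-γ than under IL-10, against 25.9% and 25.5% of all genes (6 lower without scaling). In Tconv-phagocytic cells 3 were lower and 1 higher (27.3% and 9.09%, against 26.6% and 25.9%). In Treg-phagocytic cells 1 was lower and 3 higher (9.09% and 27.3%, against 21.3% and 17.0%). Without scaling the counts there were 7 and 0, and 2 and 1. In non-phagocytic cells the largest fall was that of Spr, the last enzyme of tetrahydrobiopterin synthesis, at 13.8 against 28 TPM (log2 -0.70, adjusted p = 0.0021). Spr fell likewise in Tconv-phagocytic (-0.64, adjusted p = 0.00543) and Treg-phagocytic cells (-0.37, adjusted p = 0.00439). Ddah2, which breaks down methylated arginines that inhibit nitric oxide synthases, rose from M0 to IL-10 (19.5 to 25.8 TPM; log2 0.38, adjusted p = 0.00575).

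Of 18 tested polyamine genes, 8 were higher and 5 lower under IFN-γ than under IL-10 in non-phagocytic macrophages (6 and 9 without scaling). These are 44.4% and 27.8%, against 25.5% and 25.9% of all genes. Eif5a, the translation factor that carries hypusine made from spermidine, rose most, from 340 to 916 TPM (log2 1.71, adjusted p = 6.19e-09). Slc3a2, the heavy chain of several amino acid transporters, fell most (551 to 297 TPM; log2 -0.60, adjusted p = 1.01e-06). Sat1, which acetylates spermidine and spermine for export, was higher in phagocytic IL-10 cells, at 541 TPM in non-phagocytic, 616 TPM in Tconv-phagocytic (log2 0.27, adjusted p = 0.00129) and 687 TPM in Treg-phagocytic cells (0.43, adjusted p = 2.58e-05). T cell markers ran in the same order (195 to 209, 227 to 277 and 324 to 358 TPM). Stromal markers did not (83.9 to 88.7, 152 to 165 and 28.7 to 32.6 TPM). The part of these markers in the Sat1 differences was not tested. Atp13a2, a lysosomal polyamine exporter, was lower in IFN-γ Treg-phagocytic cells (129 TPM) than in Tconv-phagocytic (203 TPM; -0.55, adjusted p = 0.00664) and non-phagocytic ones (186 TPM; -0.49, adjusted p = 0.00827).

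Around itaconate (20 tested: citrate and aconitate supply, succinate dehydrogenase, itaconate breakdown and transport), 3 genes were higher and 7 lower under IFN-γ than under IL-10 in non-phagocytic macrophages (1 and 9 without scaling). These are 15.0% and 35.0%, against 25.5% and 25.9% of all genes. Sdhb, a subunit of succinate dehydrogenase, rose most (from a mean of 134 TPM; log2 0.82, adjusted p = 4.62e-07), and Aco1, the cytosolic aconitase, fell most (20.5 to 8.42 TPM; -0.93, adjusted p = 0.000213). In Tconv-phagocytic cells the largest fall was that of Clybl, a mitochondrial enzyme of itaconate breakdown (12.3 to 4.43 TPM; -1.24, adjusted p = 0.00247). No gene of this list was called between uptake groups under IFN-γ, except that median-of-ratios scaling called 2 higher in Treg- than in Tconv-phagocytic cells.

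**Figure D5:**
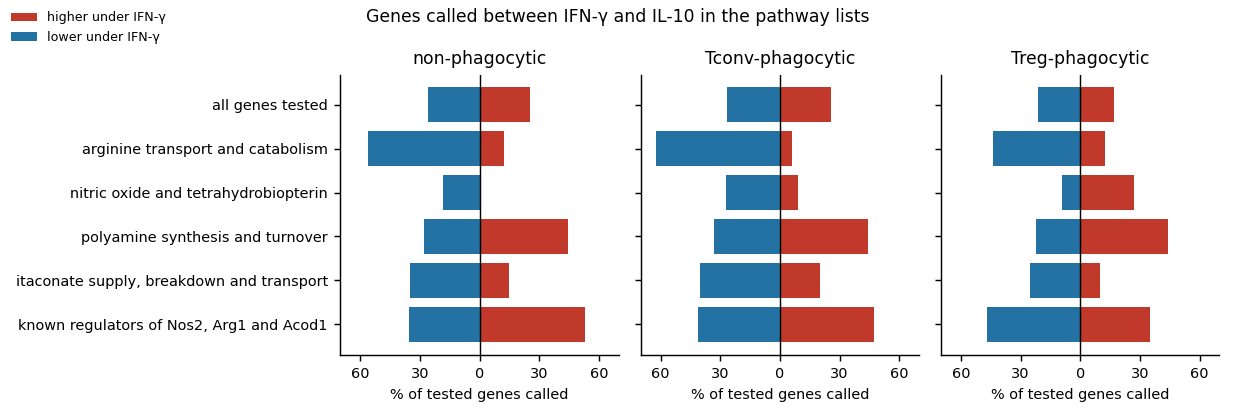
Share of tested genes called higher (red, right) or lower (blue, left) under IFN-γ than under IL-10 (x axis, %) in the 5 pathway lists and over all genes (y axis), by uptake group (panels). In the arginine list 56.2%, 62.5% and 43.8% were lower in the 3 panels, against 25.9%, 26.6% and 21.3% of all genes.

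Of 17 known regulators of Nos2, Arg1 and Acod1, 4 were lower and 1 higher in IFN-γ Treg- than Tconv-phagocytic macrophages, and 5 were lower and 0 higher than in non-phagocytic ones. Over all genes 1067 were lower and 527 higher in the first comparison and 804 lower and 286 higher in the second. Without scaling the first count of the list was 6 lower and 0 higher, and with median-of-ratios scaling 4 lower and 2 higher. Irf1, Stat3 and Hif1a were among those that fell in both comparisons, and Irf8 fell against non-phagocytic cells; these were named after their values were seen. T cell markers overlapped between these groups (762 to 1180 TPM in Treg-, 775 to 960 TPM in Tconv- and 653 to 1050 TPM in non-phagocytic libraries). Macrophage markers were higher in Treg-phagocytic libraries, at 23400 to 23700 TPM, against 18900 to 21400 TPM in Tconv- and 19600 to 20400 TPM in non-phagocytic ones. Neutrophil markers summed to 75.4 to 88.4, 66.6 to 82.6 and 91.2 to 105 TPM in the same order. The part of these sums was not tested. Irf1 averaged 105 ± 14.4 TPM in Treg-phagocytic, 244 ± 39.3 TPM in Tconv-phagocytic and 199 ± 11.7 TPM in non-phagocytic cells. For Irf1, an interferon-induced transcription factor, the log2 differences were -1.12 (adjusted p = 0.00281) and -0.89 (adjusted p = 0.0042). Under IL-10 it averaged 68.3 TPM in each of the 3 uptake groups. Hif1a, a regulator of glycolytic and inflammatory genes, averaged 40.9 TPM under IFN-γ and 90.1 TPM under IL-10 in non-phagocytic macrophages (log2 -0.84, adjusted p = 3.25e-05), and 31.7 TPM in M0.

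The genes whose scaled log2 values over the 28 libraries ran most like a member's were, for Ass1, Ifit2, H2-Q6 and Sat1 (Pearson r 0.985, 0.984 and 0.981). For Acod1 they were Dennd6b, Cdc25b and Cops3 (0.924, 0.916 and 0.908), for Arg2 Plcl2, C1qb and C1qa (0.916, 0.899 and 0.89), and for Gch1 Mad2l1, Malt1 and Rbm43 (0.84, 0.83 and 0.826). The first gene for Arg1 was Rbms2 (0.819), for Odc1 Esco1 (0.77), for Asl Sparc (0.761) and for Slc7a2 Slc30a7 (0.65). Members were compared with each other on log2 values without scaling. The most alike were Nos2 and Ass1 (0.864), Acod1 and Ass1 (0.821) and Acod1 and Nos2 (0.81), and the least alike Arg1 and Ass1 (-0.769). All of these are descriptions over libraries that fall into cytokine groups and share depth with them.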

How the data were processed

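RNA-seq of poly(A) RNA from 28 libraries (7 groups of 4) was used. The deposited TPM, per the file headers 1 column per library, hold 55487 gene IDs, of which 55141 matched a symbol. STAR, RSEM and the mm10 build are named in the submitters' processing notes; their versions are not given in the sources used here. The members and pathway lists were chosen with earlier results of these data known.

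TPM were divided by a scaling factor per library, a trimmed mean of log2 ratios (30% of ratios and 5% of levels trimmed at each end), and 1 was added before taking log2. Differences were fitted with limma 3.58.1 (R 4.3.3; empirical Bayes with a mean-variance trend) on the groups compared, over the 13631 genes that reached 1 TPM in 4 or more libraries, and p-values were adjusted by Benjamini-Hochberg. The script was tested on simulated data. Nos2, under the filter, was tested by exact permutation (scipy 1.17.1). A TPM table keeps no counts; because the low values step in units of 1 read, relative depth was read from those steps (87.6% to 91.3% of low values lay within 0.15 of a whole number, against 30% by chance), and the read numbers are estimates. Of 378 pairs of libraries, 0 held identical values.

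All members are named. From each pathway list and comparison, the called gene with the largest rise and that with the largest fall are eligible to be named, with a mean of at least 5 TPM and no overlap of groups; the 3 genes most correlated with a member are also eligible. One gene that this rule names is not reported here. Alternatives were a model of all 28 libraries, a variance weight per group, pseudocounts of 0.1 and 5, no filter, median-of-ratios scaling, no scaling, replicate blocks, the dye as a covariate and leaving out each library.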

Additional observations from a re-analysis of the deposited data

Results flagged for a closer look

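In 4 of 60 member and group pairs, 1 library stood apart from the other 3 by a gap test at the 95% level, which chance alone passes in about 5% of groups. They were Nos2 at 1.33 TPM in the IFN-γ Tconv-phagocytic library BV421-2 (others 0.87 to 0.93 TPM), Slc7a2 at 0.72 TPM in IL-10 non-phagocytic replicate 3 (others 1.0 to 1.01 TPM), Gch1 at 13.79 TPM in M0 replicate 3 (others 12.33 to 12.53 TPM) and Gch1 at 9.12 TPM in the IFN-γ Treg-phagocytic library Ax647-2 (others 12.05 to 12.38 TPM).

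The difference between uptake groups was called as different between IFN-γ and IL-10 by a limma test of the difference for 3 members. The Treg minus Tconv difference was 0.42 larger under IFN-γ for Asl (adjusted p = 0.0298), and for Nos2, fitted with no filter on low values, it was -0.73 relative to IL-10 (adjusted p = 0.0063). The Treg minus non-phagocytic difference was -0.69 relative to IL-10 for Ass1 (adjusted p = 0.0149) and -0.77 for Nos2 with no filter (adjusted p = 0.0115). The Asl and Ass1 calls were lost with a variance weight per group, and for Nos2 such a weight was not run without the filter. Under IFN-γ alone neither Nos2 difference was called (adjusted p = 0.0732 and 0.105). The Nos2 values rest on at most 18.4 estimated reads per IFN-γ library.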

How the results depend on the processing

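Of alternative member values, 498 stayed called or uncalled, 30 gained and 32 lost a call, and 1 called value reversed. This was Asl in IFN-γ minus IL-10 Treg-phagocytic cells (-0.17 without scaling, adjusted p = 0.0455). Members called only without 1 library were not counted. Ass1 was always called for IFN-γ against IL-10 and M0, and IL-10 Treg- against non-phagocytic cells. Depth limits Arg1, Arg2, Nos2 and Acod1 under IFN-γ. Slc7a2 was also low there (0.3 to 1.29 TPM), but its reads were not estimated because its annotated transcripts differ too much in length.

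The number of members called changed by over 1.5 times in the following cases; other changes were of 1 member, to between 3 and 5 from 4 for IFN-γ minus IL-10 non-phagocytic, 3 from 2 for Treg-phagocytic and 5 to 7 from 6 for Tconv-phagocytic cells, 3 from 2 for IFN-γ minus M0 and 2 from 3 for IL-10 minus M0. With all 28 libraries in 1 model it was 1 instead of 0 for IFN-γ Treg minus Tconv, 5 instead of 2 for IFN-γ minus IL-10 Treg-phagocytic and 0 instead of 1 for IL-10 Tconv minus non-phagocytic cells. With a variance weight per group it was 1 instead of 0 for IL-10 Treg minus Tconv, and 0 instead of 1 for the Treg minus Tconv and Treg minus non-phagocytic differences between cytokines. With no filter it was 2 instead of 1 for IL-10 Treg minus non-phagocytic cells and both those differences, 0 instead of 1 for IL-10 Tconv minus non-phagocytic cells and 4 instead of 2 for IFN-γ minus M0. Without scaling it was 2 instead of 1 for IL-10 Treg minus non-phagocytic cells, 5 instead of 2 for IFN-γ minus M0 and 0 instead of 1 for the Treg minus Tconv difference. Except for the numbers of samples and genes these alternatives change by construction, the cause was not tested.

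Leaving out 1 library gave 0 to 1 for IL-10 Treg minus Tconv (1 without the Tconv library Ax647-1), 1 to 2 for IL-10 Treg minus non-phagocytic (2 without non-phagocytic replicate 1), 0 to 1 for IL-10 Tconv minus non-phagocytic, 2 to 4 for IFN-γ minus IL-10 non-phagocytic (2 without IL-10 replicate 1 or 4), 2 to 5 for IFN-γ minus IL-10 Treg-phagocytic (5 without the IFN-γ library Ax647-2), 2 to 3 for IFN-γ minus M0, 2 to 3 for IL-10 minus M0 and 0 to 1 for the Treg minus Tconv difference.

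The count of all genes called moved by over 1.5 times in the following cases, apart from the blocks. With all 28 libraries it was 4202 instead of 1594 for IFN-γ Treg minus Tconv, 3611 instead of 1090 for IFN-γ Treg minus non-phagocytic, 123 instead of 1 for IFN-γ Tconv minus non-phagocytic, 106 instead of 189 for IL-10 Treg minus Tconv, 623 instead of 1552 for IL-10 Treg minus non-phagocytic, 245 instead of 838 for IL-10 Tconv minus non-phagocytic and 1812 instead of 3633 for IL-10 minus M0. For IFN-γ Tconv minus non-phagocytic it was 0 with variance weights and 7 with a pseudocount of 0.1, for IL-10 Treg minus Tconv 358 with variance weights, and for the Tconv minus non-phagocytic difference 121 instead of 236 without scaling. Leaving out 1 library gave 923 to 995 for IFN-γ Treg minus Tconv (without the Tconv library BV421-2, Ax647-1 or Ax647-2), 631 to 702 for IFN-γ Treg minus non-phagocytic (without non-phagocytic replicate 1, 2 or 4 or the Treg library BV421-1) and 2 to 4 for IFN-γ Tconv minus non-phagocytic cells (without non-phagocytic replicate 3 or 4 or the Tconv library Ax647-2). Under IL-10 it gave 100 to 111 for Treg minus Tconv (without the Tconv library BV421-1 or Ax647-2 or the Treg library BV421-1 or BV421-2), 941 for Treg minus non-phagocytic (without non-phagocytic replicate 3) and 499 to 542 for Tconv minus non-phagocytic cells (without non-phagocytic replicate 3 or the Tconv library BV421-2 or Ax647-2). For the Tconv minus non-phagocytic difference it gave 361 without the IFN-γ Tconv library BV421-1 and 143 to 156 without IL-10 non-phagocytic replicate 1, 2 or 3 or any 1 IL-10 Tconv library. With the dye as a covariate, by titles or by library names, 0 members were called for Treg minus Tconv in either cytokine, and 1378 and 1406 genes under IFN-γ and 146 and 172 under IL-10.

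Same-numbered libraries' deviations correlated at -0.067 to 0.082 (36 pairs by file number) and -0.03 to 0.085 (28 by title). A shared mouse was not tested for. A replicate block gave 0 members instead of 1 for IL-10 Tconv minus non-phagocytic cells (Arg2, adjusted p = 0.105). It gave 2 instead of 3 for IL-10 minus M0 (Ass1, adjusted p = 0.0579) and unchanged counts of 0, 1 and 2 in its other comparisons. Over all genes the block by file number lowered the counts to 905, 414, 0, 63, 798 and 308 for IFN-γ and then IL-10 Treg minus Tconv, Treg minus non-phagocytic and Tconv minus non-phagocytic cells, and the block by title gave 822 and 77 for Treg minus Tconv.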
